A study of Papio anubis and Macaca fascicularis and Castor canadensis with 48 samples.

Results

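Bulk RNA sequencing of 2 beaver brains (Castor canadensis) was set against that of 6 baboon brains (Papio anubis), 8 of the 48 samples of a series on longevity across 8 mammal species. The samples were chosen by their labels alone: species and organ. The labels describe both groups as wild-type adult males, and their protocol places both in the same collection, from a primate research center, of organs frozen on dry ice. They name no brain region, and they number the libraries as replicates without saying that each came from a separate animal, so p-values measure only the spread between these libraries. The 2 beaver livers and 6 baboon livers of the same collection served as a second organ, and 1 white-footed mouse brain, from another collection, and 6 long-tailed macaque cerebella gave side values. The white-footed mouse library stood apart from the brains compared, with a total count of 6.33 M (M, 10 to the power 6), 29.4% of it in the 10 most counted genes, and a Spearman correlation across genes of 0.818 to 0.819 with the beaver brains.

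Beavers are rodents and baboons are Old World monkeys, so the comparison spans an old split among placental mammals. Brain tissue mixes neurons with myelin-forming oligodendrocytes, astrocytes, microglia and vessel cells, and a bulk library adds up their RNA. Fewer cells of a type and less RNA per cell cannot be told apart in such a library, and cell makeup and the part of the brain sampled can both differ between the groups. The deposited table names its 16816 rows by mouse Ensembl gene ID. The table of gene names used here is of Papio anubis and matched 0 of these mouse IDs, so genes appear as IDs. No gene is given a name or a role, no marker list could be read, and only 2 IDs that rose and 2 that fell in beaver brain are shown.

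The libraries of the 2 groups were of like depth. The total count was 15.7 M and 15.2 M in beaver brain, against 14.3 M to 16.2 M in baboon brain. The number of genes with any count was 14017 and 13951 in beaver brain, below the 14366 to 14588 of every baboon brain. The 10 most counted genes held 4.18% and 4.43% of the counts in beaver brain and 6.86% to 11.6% in baboon brain. These ranges did not overlap, but with 2 against 6 libraries a two-sided exact permutation p, taken as the doubled smaller tail, cannot go below 0.0714, the value of both (adjusted p = 0.143 over 4 measures). The Spearman correlation across genes was 0.989 between the 2 beaver brains and 0.975 to 0.990 among the baboon brains, against 0.910 to 0.915 between the species. Baboon brain replicate 2 stood lowest among its group, with a median correlation of 0.977 with the other baboon brains against 0.983 to 0.988 for the rest.

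Since no brain marker could be named, the organ label was checked with genes grouped by organ in long-tailed macaque, whose libraries are in neither group. A gene was placed in a group when it was at least 4-fold higher in 1 macaque organ than in both others, at an adjusted p under 0.05. The genes high in macaque cerebellum held 24.3% and 24.2% of the counts in beaver brain and 22.6% to 24.9% in baboon brain. They held 0.734% to 0.790% in beaver liver and 0.393% to 0.486% in baboon liver. The genes high in macaque liver held 2.41% and 2.30% in beaver brain and 1.40% to 1.83% in baboon brain, against 58.1% and 58.3% in beaver liver and 57.6% to 64.7% in baboon liver. The shares of the cerebellum group in the 2 brain groups overlapped. The genes high in macaque liver held more of each beaver brain than of any baboon brain, and so did the genes high in macaque kidney, with 0.830% and 0.866% in beaver brain and 0.615% to 0.693% in baboon brain. The part of this in the results below was not tested. In white-footed mouse brain the cerebellum group held 13.4%.

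The brains of the 2 species differed at many genes. Of 13955 genes tested with edgeR's quasi-likelihood test, 7549 (54.1%) were called at a Benjamini-Hochberg adjusted p under 0.05. In beaver brain 3718 of them (26.6% of those tested) were higher and 3831 (27.5%) were lower. A difference of at least 2-fold was estimated for 4214 called genes, 2030 higher and 2184 lower, which is 30.2% of the genes tested. The median log2 fold change over all genes was -0.02, and the median absolute value was 0.64. The groups did not overlap in CPM, counts scaled to a common library total, for 7202 of the called genes (95.4%), against 60.0% of all genes tested. Without beaver brain replicate 1 or 2, which leaves a single beaver library that is assumed to vary like the baboons, 5543 and 5572 genes were called, and 5372 and 5397 of them were among the 7549 with the same direction. Without baboon brain replicate 2 the number was 7948.

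The share of genes called changed little with the level of a gene, whereas the size of the difference did. The genes tested were divided by mean level into 3 classes of equal size. In the lowest class 53.1% were called, and the absolute log2 fold change had a median of 1.26 over the class. In the middle class 56.3% were called, and the median was 0.58. In the highest class 52.9% were called, and the median was 0.43. Of the 656 called genes with an estimated difference of 32-fold or more, 574 lay in the lowest class of level, and 440 had no count in any library of 1 brain group. A fitted fold change of such a gene depends on a small added count. With these 440 genes set at their bound, 3 read pairs (2 counts each, as nearly all low counts were even) over the group without counts, 315 genes were at 32-fold or more and the number at 2-fold or more stayed at 4214.

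**Figure D1:**
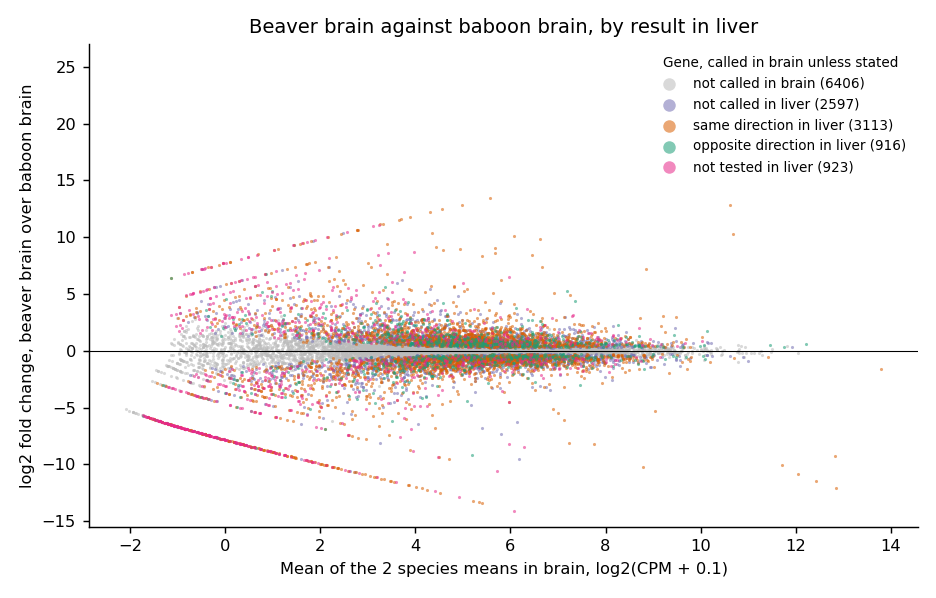
Each point is 1 of the 13955 genes tested, placed by the mean of the beaver and baboon brain levels (x axis, log2 of CPM + 0.1) and by the log2 fold change of beaver brain over baboon brain (y axis). Colours give the result of the same gene in liver, and the smooth curves of points at the edges are genes with no count, or very few, in 1 group. Large differences lie mostly at low levels, as in the 574 of 656 genes at 32-fold or more in the lowest class of level.

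Many of the brain differences returned in liver. The sources used here do not say how a beaver or baboon read came to be counted under a mouse ID. A difference between species can hold gene models and read assignment as well as expression. The liver contrast of the same 2 species marks genes that differ alike in both organs, for which these cannot be told apart. A gene without this mark is not thereby cleared of read assignment, which was not tested. In liver, 7253 of 12788 genes tested (56.7%) were called between beaver and baboon. Of the 7549 genes called in brain, 6626 were tested in liver, and 3113 of these (47.0%) were called in liver in the same direction. Of 3326 genes higher in beaver brain, 45.7% were also higher in beaver liver, against 26.8% of the 12288 genes tested in both organs. Of 3300 genes lower in beaver brain, 48.3% were also lower in beaver liver, against 29.5% of all. The opposite direction was called in liver for 916 genes, 504 of them higher in beaver brain and 412 lower. Another 2597 genes were not called in liver. The remaining 923 brain calls had too few liver counts to be tested there.

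Across the 12288 genes tested in both organs the log2 fold changes of brain and liver correlated with Pearson's r = 0.519 and Spearman's rho = 0.362. This is a description over genes, which are not independent, and brain and liver of a species may share animals. Of the 3113 genes that differed alike, 2064 (66.3%) had log2 fold changes within 1 unit (2-fold) of each other in the 2 organs. These genes were chosen for a shared direction, and 1280 of them were under 2-fold in brain. The same share over all genes tested in both organs was not computed, so the 66.3% is not read as a trait of these genes.

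**Figure D2:**
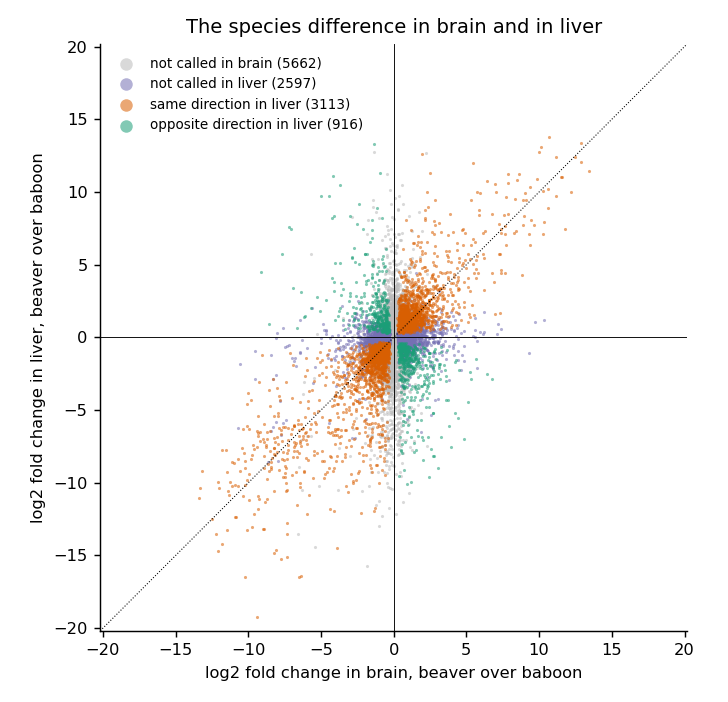
Each point is 1 of the 12288 genes tested in both organs, with the log2 fold change of beaver over baboon in brain (x axis) and in liver (y axis), and the dotted line marks equal values. The 3113 genes called in the same direction in both organs fill the lower left and upper right and reach the most extreme values, and the 916 called in opposite directions are closer to the centre. Fitted values of genes with no count in 1 group depend on a small added count, so the extremes are not read as a trait of the genes alike in both organs.

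The share of brain differences that returned in liver differed by their size. Among the 3204 called genes under 2-fold that were tested in liver, 40.0% were called there in the same direction. The share was 49.3% of 2057 genes at 2- to 4-fold, 50.2% of 604 at 4- to 8-fold and 55.6% of 396 at 8- to 32-fold. At 32-fold or more it was 81.1% of 365 genes, or 81.7% of 208 with the genes without counts in 1 group at their bound. Without the filter on low counts, so that genes with few or no liver counts also entered, the share at 32-fold or more was 54.7%. A gene absent from 1 species passes the liver filter only through the liver of the other species, so the share at 32-fold or more is not read as a rise over that of the smaller differences. The opposite direction was called for 15.8% of the genes under 2-fold and for 5.21% of those at 32-fold or more. These 2 shares are likewise not read as a fall.

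**Figure D3:**
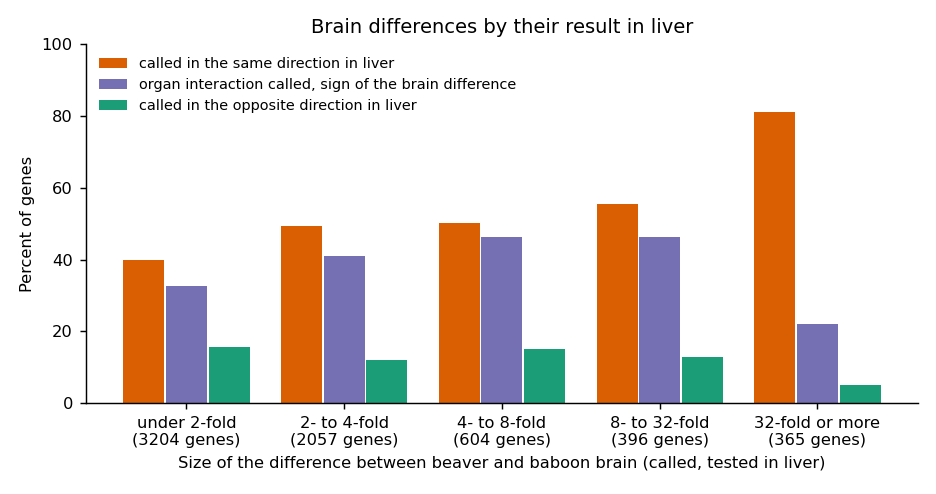
Bars give the percent of called brain genes, in 5 classes of the size of the difference between beaver and baboon brain (x axis, with the number tested in liver), that were called in liver in the same direction, had a called organ interaction with the sign of the brain difference, or were called in liver in the opposite direction. The first share is 40.0% under 2-fold and 81.1% at 32-fold or more. The class at 32-fold or more holds the genes with no count in 1 brain group, so its bars are not read against the others.

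The genes that differed by 32-fold or more alike in both organs were chosen by that difference, so the direction of their shares is fixed, and only their size is described. The 206 lower in beaver held 0.00615% and 0.0140% of the counts in the 2 beaver brains, against 4.29% to 7.66% in the 6 baboon brains. The 3 highest of them made up 66.7% of their summed level in baboon brain. The 90 higher in beaver held 0.951% and 1.07% of the counts in beaver brain, against 0.00233% to 0.00425% in baboon brain, with 72.7% in the 3 highest.

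The 4 genes that follow were the most changed of their kind among called genes with a mean of at least 20 CPM in the higher brain group, a count in all 8 brain libraries and groups that did not overlap. Of 1102 such genes higher in beaver brain and alike in liver, ENSMUSG00000055194 had the largest log2 fold change. It had 3115.3 and 3165.8 CPM in the 2 beaver brains, against a lowest value of 0.252, a median of 0.383 and a highest of 0.558 CPM in the 6 baboon brains. Both beaver brains lay far above every baboon brain, where the gene had 36 counts in all. Its log2 fold change in brain was 12.86 ± 0.18 (SE, edgeR adjusted p = 1.56e-10). In liver it had 890.6 and 1067.2 CPM in beaver, against 0 to 0.152 CPM in baboon (median 0.0789), and its liver log2 fold change was 13.35 ± 0.36 (edgeR adjusted p = 1.58e-07). The difference between the organs was -0.53 ± 0.45 on the log2 scale (edgeR adjusted p = 0.388). White-footed mouse brain had 311.4 CPM of it, and macaque cerebellum 0.367 to 1.21 CPM.

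Of 935 such genes lower in beaver brain and alike in liver, the largest fall was that of ENSMUSG00000064367. It had 6.63 and 0.525 CPM in the beaver brains, against a lowest value of 7424.7, a median of 16089.8 and a highest of 21101.3 CPM in the baboon brains. The 2 beaver brains differed from each other by 104 against 8 counts, yet both lay far below every baboon brain, of which replicate 2 was the lowest. The log2 fold change in brain was -12.10 ± 1.06 (SE, edgeR adjusted p = 1.83e-05). In liver it had 0.185 and 0.348 CPM in beaver, against 5170.7 to 8607.7 CPM in baboon (median 6382.5), and its liver log2 fold change was -14.69 ± 0.45 (edgeR adjusted p = 1.58e-07). The difference between the organs, 2.59 ± 1.00 on the log2 scale, was at the threshold (edgeR adjusted p = 0.0496), and without beaver brain replicate 1 it was -0.19 (edgeR adjusted p = 0.951). The brain value itself was -14.88 without that library. White-footed mouse brain, of another rodent, had 27796.5 CPM and macaque cerebellum 2549.2 to 7291.9 CPM.

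For other genes the species difference in brain departed from that in liver. A term for species and organ together was fitted over all 16 brain and liver libraries of beaver and baboon. It asks whether the species difference in brain departs from that in liver, and a factor of the species that acts on a gene alike in both organs drops out of it. The term was called for 5741 of 14504 genes (39.6%), with the brain difference above the liver difference for 3051 genes and below it for 2690. Of the 6626 brain calls tested in liver, 2434 (36.7%) had a called interaction with the sign of the brain difference. They comprised all 916 genes of opposite direction, 1295 of the 2597 not called in liver and 223 of the 3113 that differed alike. Another 731 of the genes that differed alike had a called interaction of the other sign, so that their liver difference was the larger. The 16 libraries were treated as independent in this fit. Leaving out beaver brain replicate 1 gave 1592 such genes, and leaving out replicate 2 gave 1622. By the size of the brain difference, the share was 32.6% under 2-fold, 46.4% at 4- to 8-fold and 22.2% at 32-fold or more. By the fit, the last class held all 440 called genes with no count in 1 brain group. Such a gene absent from 1 species passes the liver filter only through the other species. The 22.2% is therefore not read as a fall, and this share was not computed with these genes at their bound.

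Of 805 genes with a mean of at least 2 CPM in a liver group, higher in beaver brain, not called alike in liver and with an interaction of the same sign, the largest rise was that of ENSMUSG00000026117. It had 18.0 and 22.0 CPM in the beaver brains, against a lowest value of 0.126, a median of 0.264 and a highest of 0.913 CPM in the baboon brains. The groups did not overlap, and the 6 baboon brains held 34 counts together. The log2 fold change in brain was 5.65 ± 0.49 (SE, edgeR adjusted p = 1.69e-05). In liver the direction was turned, with 1.48 and 2.26 CPM in beaver against 2.54 to 6.90 CPM in baboon (median 4.37), and the liver log2 fold change was -1.52 ± 0.45 (edgeR adjusted p = 0.0168). This liver call was lost without beaver liver replicate 1 (-1.17, edgeR adjusted p = 0.146). The interaction was 7.15 ± 0.79 (edgeR adjusted p = 6.17e-06). White-footed mouse brain had 9.96 CPM of this gene, and macaque cerebellum 1.16 to 2.06 CPM.

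Among the 649 genes that met these conditions and were lower in beaver brain, the largest fall was that of ENSMUSG00000030359. It had 0.255 and 0.131 CPM in the beaver brains, from 3 read pairs in all, against a lowest value of 83.7, a median of 118.6 and a highest of 313.2 CPM in the baboon brains. The groups did not overlap, and the highest value, that of baboon brain replicate 2, stood apart from the other baboon brains, which reached 131.3 CPM. Its level in beaver brain was lower by a factor of 804.1 (the ratio of baboon over beaver), with an exact 95% Poisson interval of 275.1 to 3899.1 for the beaver read pairs, and edgeR's adjusted p was 2.26e-05. In liver it had 959.0 and 887.4 CPM in beaver, against 800.7 to 14235.5 CPM in baboon (median 3104.2). Baboon liver replicates 5 and 6 had 14095.7 and 14235.5 CPM, and the highest of the other baboon livers had 3772.8 CPM. No fit left out both of these replicates. These liver groups overlapped, with a log2 fold change of -2.85 ± 1.13 that was not called (edgeR adjusted p = 0.0555), though it was called by DESeq2 (log2 fold change -2.81, adjusted p = 0.0143) and by edgeR without baboon liver replicate 3 (adjusted p = 0.0260) or 4 (adjusted p = 0.0437). Under those settings the gene fell in both organs. The interaction was -6.71 ± 1.61 (edgeR adjusted p = 0.00384). White-footed mouse brain had 10.1 CPM and macaque cerebellum 66.9 to 111.9 CPM.

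**Figure D4:**
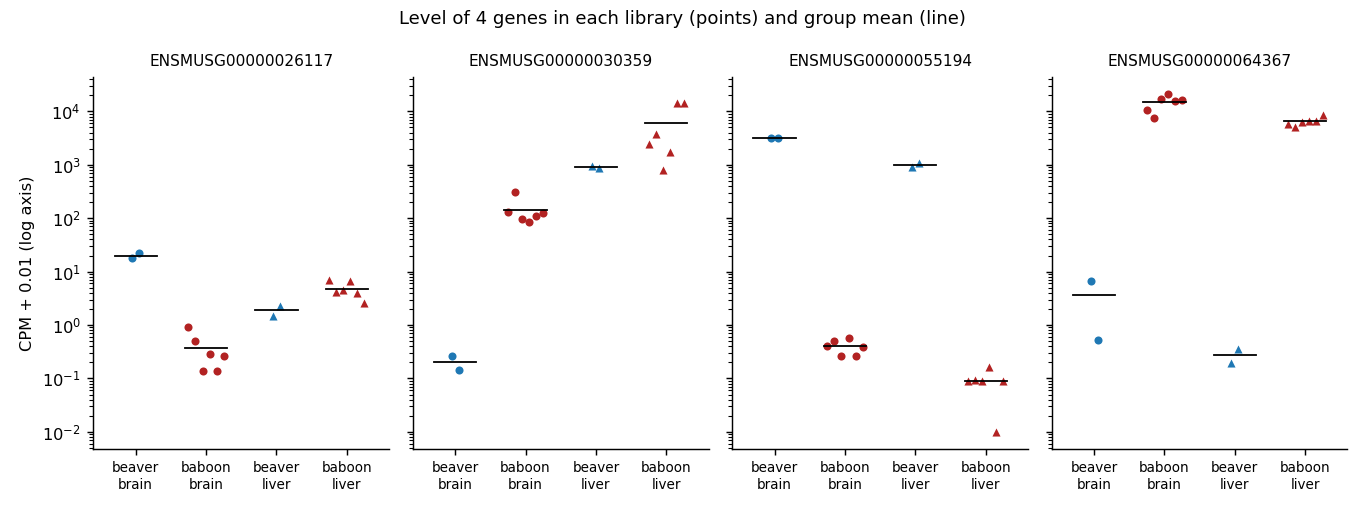
Levels of the 4 genes in each library (y axis, CPM + 0.01 on a log axis), with beaver and baboon brain as circles and liver as triangles, points in order of replicate number and lines at group means. For ENSMUSG00000055194 and ENSMUSG00000064367 the species are far apart in both organs, and for ENSMUSG00000026117 and ENSMUSG00000030359 they are farther apart in brain than in liver.

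Most genes absent from beaver brain but counted in every baboon brain were absent from beaver liver too. In brain, 468 genes had no count in either beaver library and a count in all 6 baboon libraries, with a median of 1.18 CPM in baboon. Of these, 392 (83.8%) also had no count in either beaver liver, against 20.4% of all genes in the table, and 169 of the 392 were counted in all 6 baboon livers. The 20.4% covers genes of every level, and the share among genes of a level as low as that of the 468 was not computed. All 17 of the 468 genes with a mean of 20 CPM or more in baboon brain had no count in beaver liver. Of the 392 genes, 170 were counted in white-footed mouse brain, which had counts for 80.4% of all genes in the table, and 17 were counted in all 13 livers of the other 6 species. No share over all genes was computed for the 169 or for these 17, so neither is read as a result about the 392. In the other direction, 133 genes had no count in any baboon brain and a count in both beaver brains, with a median of 0.780 CPM in beaver, and 7 had 20 CPM or more. Allowing up to 1 read pair over the 6 baboon brains, a setting chosen after seeing the data, gave 212 such genes. The same allowance over the 2 beaver brains gave 563 genes in place of 468. Of the 133 genes, 80 also had no count in any baboon liver, and no share over all genes was computed for this. No count in any of the 18 baboon libraries was found for 59, and 32 had none in the 17 macaque libraries either. The numbers are not symmetric by construction, since 6 baboon libraries had to be without a count against 2 of beaver. A gene at 1.18 CPM gives few read pairs in a library of this depth, so absence at such a level means not detected.

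The genes high in macaque cerebellum were more often lower than higher in beaver brain. Of the 1695 genes tested of that group, 327 (19.3%) were higher and 526 (31.0%) lower in beaver brain, with a median log2 fold change of -0.18, against 26.6% higher and 27.5% lower, with a median of -0.02, over all genes tested. Without beaver brain replicate 1 or 2 the median of the group was -0.20 and -0.23, against -0.05 and -0.05 over all genes. With 16 libraries in the fit, 191 of the group were higher and 393 lower, against 3267 higher and 3457 lower over all genes. With all 48 libraries, 175 of the group were higher and 392 lower, against 3396 higher and 3671 lower over all genes. Of the 664 genes high in macaque liver, 183 (27.6%) were higher and 162 (24.4%) lower, with a median of 0.06. Of the 472 genes high in macaque kidney, 128 were higher and 128 lower. Median absolute log2 fold changes were 0.64 in the cerebellum group, 1.15 in the liver group and 1.44 in the kidney group, beside 0.64 over all genes. The groups were not matched for level, and this median was 1.26 in the lowest class of level and 0.43 in the highest. The liver and kidney groups held small shares of the brain counts, so their larger medians are not read as a trait of these groups. The groups were defined in a monkey, the long-tailed macaque, and after the brain values had been seen. In the cerebellum group 356 called genes had too few liver counts to be tested there, and of the other 497, 38.4% were called alike in liver, beside 40.3% in the liver group, 38.5% in the kidney group and 47.0% over all genes.

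**Figure D5:**
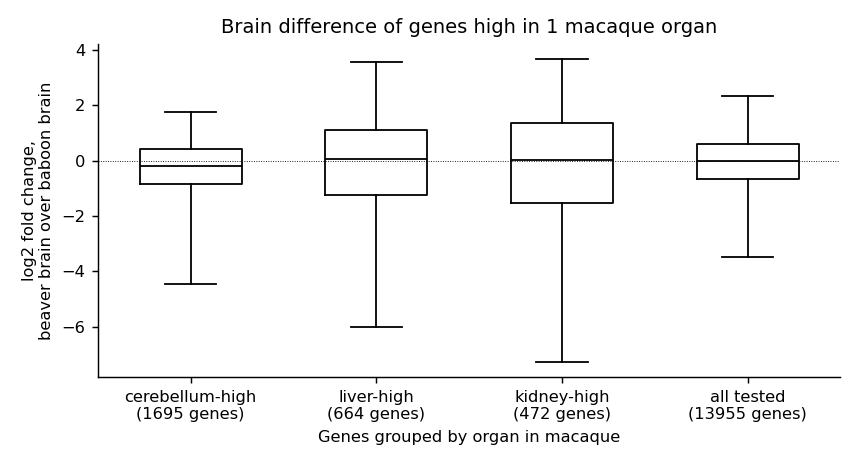
Log2 fold changes of beaver brain over baboon brain (y axis) for genes high in 1 organ of long-tailed macaque and for all genes tested. Boxes span the quartiles with the median as a line, and whiskers reach the 5th and 95th percentiles. The cerebellum group has a median of -0.18 and a spread like that of all genes, and the liver and kidney groups spread wider. The groups were not matched for level, so the wider spread is not read as a trait of these groups.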

How the data were processed

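RNA was extracted from frozen organs with the PureLink RNA Mini Kit, per the labels' protocols, and the submitters' processing notes name STAR and featureCounts, without versions. The deposited values are counts per gene ID in 1 table of 48 libraries, and the sources used here give neither genome builds nor the step from each species to mouse IDs. In the brain libraries 97.2% to 99.1% of counts of at most 20 were even, so 2 counts were read as 1 read pair. Of the 16816 IDs, 1253 had no count in the 8 brains.

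Brain and liver were fitted separately with edgeR 4.0.16 in R 4.3.3, using only the 2 groups compared: default low-count filter, TMM scaling, quasi-likelihood F test, two-sided, Benjamini-Hochberg adjustment over all genes tested, called at an adjusted p under 0.05. The interaction was fitted over the 16 brain and liver libraries, without an animal term. Standard errors are the fold change divided by the square root of F. CPM used the total count and were not scaled by gene length. The classes of level, the CPM floors and the summed levels set genes side by side without such a correction. The fits were also run on simulated data with far fewer changed genes and less spread than here, so that run does not cover these data. The biological coefficient of variation was 0.188 in beaver brain (n = 2) and 0.249 in baboon brain (n = 6). No 2 libraries of a brain group agreed within sampling noise. Intervals cover counting error only.

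The rule for named genes took called genes by log2 fold change in 5 parts and asked for gene symbols. With 0 IDs paired with a symbol, only the first gene each way of 2 parts is given, by ID, and the other parts, the gene lists and the cell markers could not be used. The members and gene lists were chosen with earlier results of these data known. Alternatives were other scalings, no low-count filter, counts halved, DESeq2 1.42.0, a replicate block, white-footed mouse brain added, 16 or 48 libraries in the fit, and each library left out in turn.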

Additional observations from a re-analysis of the deposited data

Results flagged for a closer look

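The species difference in brain departed from that in liver for 5741 of 14504 genes by edgeR's interaction test. Of the genes described above, ENSMUSG00000026117 and ENSMUSG00000030359 were chosen among genes with a called interaction, so their calls were fixed by that choice. The interaction on the log2 scale was 7.15 for ENSMUSG00000026117 (edgeR adjusted p = 6.17e-06), -6.71 for ENSMUSG00000030359 (edgeR adjusted p = 0.00384) and 2.59 for ENSMUSG00000064367 (edgeR adjusted p = 0.0496). The last stayed past the threshold in 2 of 16 fits that left out a library, and it was -0.19 without beaver brain replicate 1 (edgeR adjusted p = 0.951).

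Baboon brain replicate 2 had 313.2 CPM of ENSMUSG00000030359, and its gap to the nearest other baboon brain was 0.793 of the range of the group. Of 19 groups examined this was the only one to stand out, and chance alone would give about 1 in 20.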

How the results depend on the processing

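Over 17 alternative settings no brain call changed direction, and 71.2% to 99.5% of the 7549 calls were kept. The count of calls was 5543 to 7948 when a library was left out, with both ends named in the report, 7918 by DESeq2 and 6724 with 16 libraries in 1 fit. The labels do not say that replicate numbers mark animals, and same-numbered libraries did not all deviate together by over 0.1: the correlation was -0.00195 to 0.198 between the species in brain, 0.0602 to 0.0668 in liver, 0.0488 to 0.109 between baboon brain and liver (5 of 6 best with their own number, a hint from the data) and 0.102 between beaver brain and liver. The replicate block joined same-numbered libraries of the 2 species, which cannot be of the same animal. Baboon libraries without a same-numbered beaver library added nothing to its fold changes, which rested on replicates 1 and 2 of each species. With this block, 6803 brain genes and 4679 liver genes were called (2106 higher in beaver), 2005 genes were alike and 532 opposite. The shares alike were 27.1% under 2-fold and 60.1% at 32-fold or more. The liver call of ENSMUSG00000026117 was lost (-1.77, edgeR adjusted p = 0.0529) and that of ENSMUSG00000030359 gained (-1.95, edgeR adjusted p = 0.0113). With species and number as a block for brain and liver, the interaction was called for 5343 genes, and that of ENSMUSG00000064367 was not (2.12, edgeR adjusted p = 0.136). Without the low-count filter these shares were 38.0% and 54.7%. The share under 2-fold was 43.4% with 16 libraries fitted, 41.8% with all 48 and 38.8% to 43.5% with a library left out. Of the genes high in macaque cerebellum, 191 were higher in beaver brain with 16 libraries fitted, 175 with 48, and 207 to 364 with a library left out. Brain calls with an interaction of the same sign numbered 1592 to 2609 with a library left out. The interaction of ENSMUSG00000064367 ranged from -0.19 (edgeR adjusted p = 0.951, without beaver brain replicate 1) to 3.45 (without replicate 2). Allowing 1 read pair over the group, an alternative chosen after seeing the data, genes absent from baboon brain numbered 212 and those absent from beaver brain 563. The cause of these shifts was not tested.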
